A study of Mus musculus with 4 samples.

Results

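Sycp1-high barcodes are germ cell barcodes of the day 35 Znhit1 knockout testis library chosen for a high level of Sycp1, the transverse filament protein of the synaptonemal complex. The rule set 5 limits on each cell barcode: at least 1000 unique molecular identifiers (UMIs, 1 per captured transcript) and 500 genes with at most 10% mitochondrial UMIs, at least 1 UMI of the germ cell genes Ddx4 or Dazl, at least 3000 CPM of Sycp1 (UMIs of a gene per 1000000 UMIs of the barcode), under 600 CPM of Zfy1 plus Zfy2, and under 1200 CPM of Meig1. The limits kept 773 barcodes. These were 5.05% of the 15306 deposited barcodes, 9.52% of the 8121 that passed the depth filters, and 12.3% (95% Clopper-Pearson interval 11.5 to 13.1%) of the 6307 that also held a Ddx4 or Dazl UMI.

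The study took testis cells of Znhit1 knockout and control mice at postnatal days 16 and 35 into 1 droplet library per genotype and day, and its labels name the gene Znhit1. The ZNHIT1 protein works in SRCAP, a remodeller that exchanges H2A for its variant H2A.Z in chromatin. The labels give a genotype name for each library, and leave out the allele, any promoter driving a deletion and the number of animals behind a library. Counts of the day 35 knockout library are described here, and those of the day 16 knockout, day 16 control and day 35 control libraries were not analysed here, so no difference between genotypes or ages is given. With 1 library there is no replicate and no test, and all 95% intervals are exact Poisson or binomial ones that cover counting error only.

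Male meiotic prophase opens when retinoic acid signals through STRA8 and MEIOSIN. In leptonema SPO11 cuts DNA at sites that PRDM9 has marked, while cohesin and HORMAD proteins form the chromosome axes. In zygonema the cut ends are resected, coated with the recombinase DMC1 and paired with the homologue, while SYCP1 zips the axes together. In pachynema synapsis is complete on the autosomes, the largely unsynapsed X and Y chromosomes are silenced in the sex body, and a new transcription programme starts. Transcripts of the Y-linked zinc finger genes Zfy1 and Zfy2 and of Meig1, a gene of late spermatocytes and spermatids, were upper limits for the members and lower limits for the Zfy-high and Meig1-high comparison sets.

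The comparison sets came from the same library, and all levels in CPM are taken over the summed UMIs of a set. All other barcodes with a Ddx4 or Dazl UMI numbered 5534, and they include 3 smaller sets. Stra8-positive barcodes held at least 2 Stra8 UMIs with Sycp1, Zfy1 plus Zfy2 and Meig1 under the limits and numbered 1118, Zfy-high barcodes held at least 600 CPM of Zfy1 plus Zfy2 with Meig1 under its limit and numbered 607, and Meig1-high barcodes held at least 1200 CPM of Meig1 and numbered 661. Barcodes with at least 1% of their UMIs from 9 Leydig cell genes, 850 in all, stand for a somatic cell type and show the level of germ cell transcripts where none should be made, although 386 of them are also among the other Ddx4 or Dazl barcodes. The median depth was 4524 UMIs in Sycp1-high barcodes, against 5980.5 in Stra8-positive, 5298 in Zfy-high, 10121 in Meig1-high and 5188.5 in all other Ddx4 or Dazl barcodes. Of the 773 barcodes, 1, 3 and 3 carried a barcode sequence also listed in the day 16 control, day 16 knockout and day 35 control libraries.

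The genes that set the limits took the following values, which describe the choice and support nothing. Sycp1 ran over the members between 3000 and 7954 CPM with a median of 4049 CPM, and rested on a median of 19 Sycp1 UMIs and never fewer than 3. Just inside the Sycp1 limit lay 201 barcodes with 3000 to 3500 CPM, and just outside it 254 barcodes with 2500 to 3000 CPM that met every other limit. Of 1589 germ barcodes with enough Sycp1, 520 were set aside for Zfy1 plus Zfy2 and 312 for Meig1, 16 of them for both. No Zfy1 or Zfy2 UMI was seen in 458 members, while 50 lay between 500 and 600 CPM.

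Transcripts of early meiotic prophase were seen in most members, with 1 group that differs taken up next. At least 3 of the 5 markers Sycp1 (GRCm38 chr3:102818499-102936100), Sycp2 (chr2:178345293-178407685), Ccnb3 (chrX:6979652-7041619), Smc1b (chr15:85064689-85131964) and Zcwpw1 (chr5:137787798-137822621) were seen in 757 of 773 members (97.9%), where Sycp1 is present by the rule, against 1045 Stra8-positive (93.5%) and 568 Zfy-high barcodes (93.6%), 3588 of all other Ddx4 or Dazl barcodes (64.8%) and 90 of the 850 Leydig-marker barcodes (10.6%). With each barcode thinned to 2000 UMIs, which left out 18 members, Zcwpw1 was seen in 61.6% of members (78.1% unthinned), against 49.8% of Stra8-positive barcodes (84.0% unthinned) and 3.92% of Leydig-marker barcodes (13.2% unthinned), and Prdm9 in 14.4% (28.3% unthinned), against 19.0% of Stra8-positive (37.3% unthinned) and 0.357% of Leydig-marker barcodes (3.18% unthinned). Thinned Zcwpw1 was seen in 28.7% of Zfy-high (51.2% unthinned) and 7.53% of Meig1-high barcodes (30.4% unthinned). Thinned Prdm9 was seen in 4.38% (9.72% unthinned) and 0.753% (4.39% unthinned) of these 2 sets. At least 3 of the 5 markers were seen in 518 Meig1-high barcodes (78.4%). Median depths of the unthinned sets were 4524 UMIs in members, 5980.5 in Stra8-positive, 5298 in Zfy-high, 10121 in Meig1-high and 9203 in Leydig-marker barcodes. Markers of most other testis cells were lower than in all other Ddx4 or Dazl barcodes, but those of Sertoli cells and spermatids were not 2-fold lower. Of 7 spermatid genes with enough UMIs, 0 were at least 2-fold lower than in that set, beside 28.4% of all genes. The 9 Leydig genes summed to 471 CPM in Sycp1-high barcodes, against 2563 CPM in all other Ddx4 or Dazl barcodes. In the smaller sets they summed to 780 CPM (Stra8-positive), 646 CPM (Zfy-high) and 404 CPM (Meig1-high), so a low level was not particular to the members. The 11 Sertoli genes summed to 1570.4 CPM in Sycp1-high barcodes, against 1215 CPM in Stra8-positive and 1844 CPM in all other Ddx4 or Dazl barcodes. Of these Sertoli genes, 0 of 11 were at least 2-fold lower than in all others, beside 28.4% of all genes. Their part in the gene differences was not tested. Single members with at least 1% of UMIs from a list numbered 1 for Leydig cells, 2 for Sertoli cells, 1 for peritubular myoid cells and 0 for macrophages. No UMI was seen in any member for 4 of 12 spermatid genes (Prm1, Prm2, Tnp1 and Odf1), 1 of 6 endothelial genes (Emcn) and 2 of 8 stromal genes (Lum and Dpt). These lists summed to 19.7, 13.4 and 62.8 CPM in Sycp1-high barcodes, against 22.9, 38.6 and 375 CPM in all other Ddx4 or Dazl barcodes. A doublet caller marked 15 of the 773 members (1.94%), against 219 of all other Ddx4 or Dazl barcodes (3.96%).

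Znhit1 itself gave 12 UMIs over all 773 members, a level of 2.81 CPM (95% interval 1.45 to 4.91). Its level was 2.83 CPM in Stra8-positive, 3.55 CPM in Zfy-high and 3.18 CPM in Meig1-high barcodes, and 17.4 CPM in the Leydig-marker barcodes. The germ cell sets lay close together and below the somatic set. The deleted part of the gene is not stated, so a 3' count near the gene's end may not check the genotype.

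The members were not uniform: their X-linked share of UMIs fell into 2 peaks. The share lay under 1.5% in 127 members (16.4%), called low-X members here, and at or above 1.5% in 646 (83.6%), with 41 members between 1.25 and 1.75%. The value of 1.5% was placed between the peaks after the shares had been seen. Pooled over UMIs, the X-linked share was 0.858% in low-X members and 2.48% in the other members. The other members lay near the Stra8-positive (2.35%) and Zfy-high (2.56%) barcodes, and the low-X members near the Meig1-high barcodes (0.785%), of which 73.2% were under 1.5%. Y-linked genes other than Zfy1 and Zfy2 took 0.0409% of UMIs in low-X members and 0.0873% in the other members. The 2 kinds of member also differed in depth, with a median of 7035 UMIs and 4.81% mitochondrial UMIs in low-X members and 4274 UMIs and 6.77% in the other members, whose part in the differences between them was not tested. Meig1 reached at least 600 CPM in 87 of 127 low-X members and in 33 of 646 other members, so a Meig1 limit of 600 CPM would have removed most of the low-X members.

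**Figure D1:**
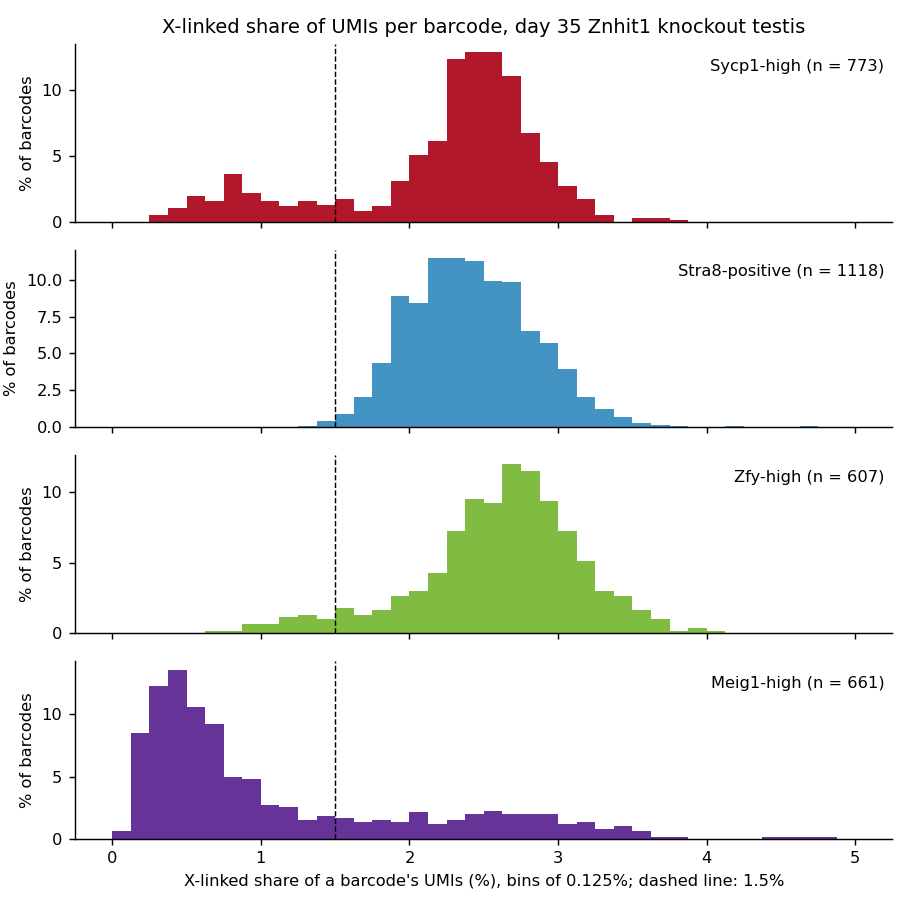
Histograms of the X-linked share of each barcode's UMIs (horizontal axis, percent, bins of 0.125%) as a percent of the barcodes of a set (vertical axis), for the 773 Sycp1-high, 1118 Stra8-positive, 607 Zfy-high and 661 Meig1-high barcodes. Sycp1-high barcodes form a large peak near 2.5% and a small one below the dashed line at 1.5%, where 127 of them lie.

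Low-X members had low levels of many transcripts of early prophase. Sycp1, whose level the rule sets in both kinds of member, stood at 4373 CPM in low-X members and 4192 CPM in the other members. Sycp2, a protein of the chromosome axis, stood at 1508 and 1389 CPM. Prdm9, the methyltransferase that marks recombination sites, stood at 2.75 CPM in low-X members (3 UMIs) and 101 CPM in the other members, 36.7-fold (95% interval 12.5 to 179) lower. Zcwpw1, the reader of the PRDM9 mark, was 13.2-fold (95% interval 10.3 to 17.1) lower at 58.6 against 771 CPM, and Hells, the chromatin remodeller that works with PRDM9, 24.5-fold (95% interval 18.5 to 33.0) lower at 45.8 against 1121 CPM. The low-X levels of these 3 genes were at or near those of the Meig1-high barcodes, which were 3.89, 38.7 and 79.7 CPM. Of the whole list for double-strand break formation, 9 of 11 genes were at least 2-fold lower in low-X members and 1 was higher, beside 25.1% of all 10523 genes lower and 14.0% higher. The exception was Morc2b, a germ cell paralogue of Morc2a, at 53.1 CPM in low-X members and 7.55 CPM in the other members.

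Genes of the later programme ran the opposite way. Of 17 pachytene genes with enough UMIs, 12 were at least 2-fold higher in low-X members and 1 was lower, and of 17 piRNA pathway genes 9 were higher and 0 lower. Over all genes 14.0% were higher and 25.1% lower. Hspa2, a chaperone needed to take the synaptonemal complex apart, stood at 903 CPM in low-X members, 5.07-fold (95% interval 4.56 to 5.63) above the 178 CPM of the other members. Mov10l1, the helicase of piRNA precursor processing, stood at 1085 and 345 CPM. Kctd19, which acts with the repressor ZFP541 in spermatocytes, stood at 356 and 51.3 CPM, and the Hop2 partner gene Mnd1 at 361 and 40.0 CPM. Some low-X levels were above those of every other set: Trp63, the p53 family gene of the germ line, stood at 51.3 CPM in low-X members against 3.78 CPM in the other members, 10.9 CPM in Zfy-high and 15.5 CPM in Meig1-high barcodes, and Tafa1 at 453 CPM against 51.6, 222 and 59.9 CPM. Trp63 was seen in 34 of 127 low-X members and 10 of 646 other members, and Tafa1 in 84 and 42. The leading genes of these 127 barcodes went against the name leptotene to zygotene spermatocytes, so they are called low-X members after their rule, and counts that change without them are given both ways below.

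**Figure D2:**
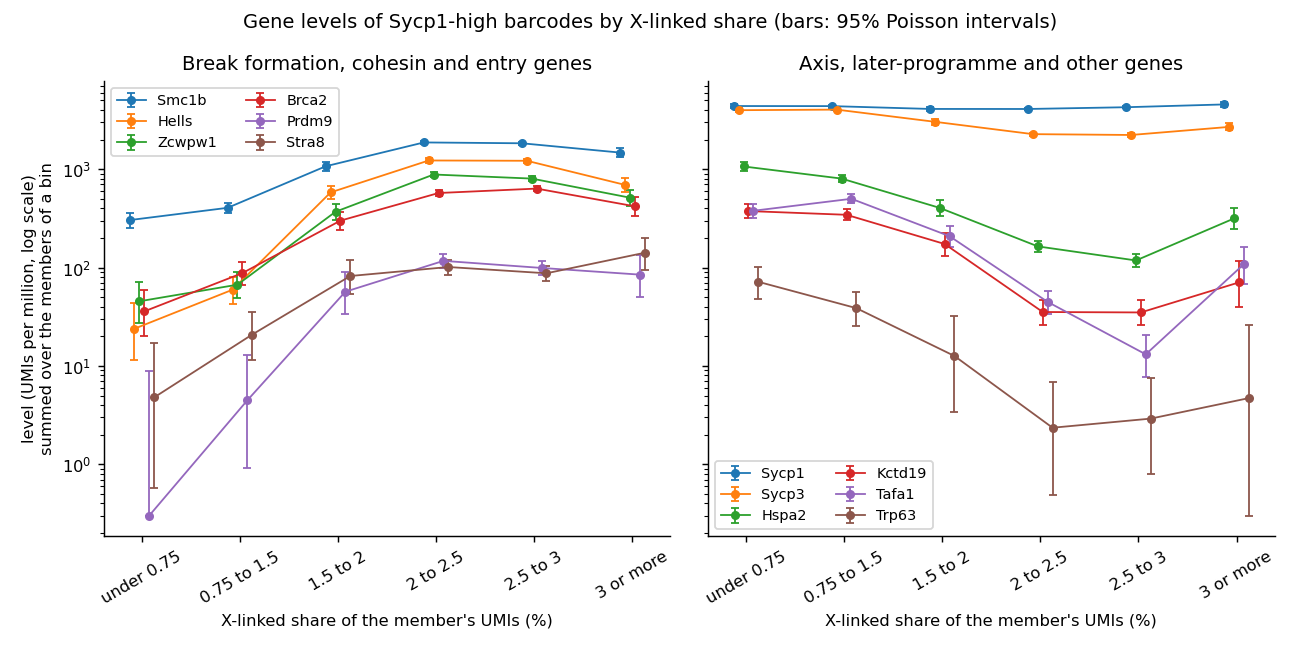
Levels of 12 genes (vertical axes, CPM on a log scale, with 95% Poisson intervals) over the Sycp1-high barcodes in 6 bins of the X-linked share of UMIs (horizontal axes, percent). Prdm9 had no UMI in the lowest bin and is drawn at the bottom of the axis with the upper limit of its interval; Sycp1 is a gene of the rule, genes of break formation and entry are low in the bins under 1.5%, and Hspa2, Kctd19, Tafa1 and Trp63 are high there.

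Members between the 2 peaks had intermediate levels. Zcwpw1 stood at 45.4 CPM in the 39 members under 0.75%, 66.9 CPM in the 88 members up to 1.5%, 369 CPM in the 52 members up to 2% and 882 CPM in the 280 members up to 2.5%. Hspa2 stood at 1065, 801, 404 and 164 CPM over the same bins. Above these bins, Zcwpw1 stood at 802 CPM in the 271 members up to 3% and 513 CPM in the 43 members at 3% or more. Hspa2 stood there at 118 and 315 CPM, so neither gene kept its direction across all bins.

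Against all other Ddx4 or Dazl barcodes, 941 of 18154 genes with at least 20 UMIs (5.18%) were at least 2-fold higher in Sycp1-high barcodes and 5154 (28.4%) at least 2-fold lower. The median log2 ratio over all genes was -0.28, so a typical gene was slightly lower. The other set mixes spermatogonia, spermatocytes and droplets with somatic RNA, and the 3 smaller sets, with medians of -0.27 (Stra8-positive), -0.07 (Zfy-high) and 0.16 (Meig1-high), are closer comparisons. Because Sycp1, Zfy1, Zfy2 and Meig1 in these same barcodes chose the members, the gene differences below are descriptions of the chosen barcodes and no independent support for the choice.

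Synaptonemal complex genes were high, with a list median of 1.17 on the log2 scale against Stra8-positive barcodes. Of 11 genes, 6 were at least 2-fold higher in Sycp1-high than in Stra8-positive barcodes and 1 was lower, where 11.1% of 14602 genes were higher and 28.2% lower, and the count includes Sycp1, a gene of the rule. Without the low-X members, 9 of 11 were higher and 0 lower, beside 9.31% of all genes higher and 27.7% lower, and against all other Ddx4 or Dazl barcodes 6 of 11 were higher, beside 7.42% of all genes. Sycp2 stood at 1419 CPM in Sycp1-high barcodes, against 339 CPM in Stra8-positive barcodes, a ratio of 4.19-fold (95% interval 4.01 to 4.37). Sycp3, the other axis protein, stood at 2775 against 703 CPM, 3.95-fold (95% interval 3.83 to 4.07) higher. Hormad1, which marks unsynapsed axes, stood at 839 against 245 CPM, with 1617 CPM in low-X members and 572 CPM in the other members. Trip13, the ATPase that strips HORMAD proteins from synapsed axes, was the lower gene at 40.8 against 87.4 CPM.

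Against Zfy-high barcodes, the same genes hardly differed: 2 of 11 were at least 2-fold higher and none lower, beside 4.82% of 12232 genes higher and 3.46% lower, and the list median was 0.05 on the log2 scale. Those 2 were Syce2, a central element protein, at 969.8 against 443 CPM, and Syce1 at 235 against 115 CPM. Syce2 parted the kinds of member as well, with 315 CPM in low-X members and 1195 CPM in the other members. Against Meig1-high barcodes Syce2 and the central element gene 4930447C04Rik (Six6os1) were the 2 genes at least 2-fold higher, beside 20.5% of 13722 genes higher and 18.6% lower.

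The promoters of Sycp1, Sycp3 and the crossover gene Hfm1 are shown because STRA8 is known to bind a CNCCTCAG motif at its targets in mouse. Each run is the RefSeq sequence of build GRCm38.p6 from 250 bases before to 50 after the gene's start, 5' to 3' on the gene's strand; capitals mark a CNCCTCAG match on either strand or an E-box, CACGTG. They are Sycp1 (chr3:102936051-102936350, minus strand), Sycp3 (chr10:88459337-88459636, plus strand) and Hfm1 (chr5:106925841-106926140, minus strand).
Sycp1: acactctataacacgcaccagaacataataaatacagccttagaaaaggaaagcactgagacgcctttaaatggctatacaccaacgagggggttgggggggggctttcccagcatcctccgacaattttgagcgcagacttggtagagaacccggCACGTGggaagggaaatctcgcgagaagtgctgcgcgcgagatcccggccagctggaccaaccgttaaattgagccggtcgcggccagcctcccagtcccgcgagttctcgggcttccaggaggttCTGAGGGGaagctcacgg
Sycp3: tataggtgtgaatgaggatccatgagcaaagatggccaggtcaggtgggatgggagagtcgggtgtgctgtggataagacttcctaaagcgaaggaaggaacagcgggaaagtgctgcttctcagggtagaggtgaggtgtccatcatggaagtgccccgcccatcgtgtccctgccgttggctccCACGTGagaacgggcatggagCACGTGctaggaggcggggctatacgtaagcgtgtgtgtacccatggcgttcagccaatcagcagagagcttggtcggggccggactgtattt
Hfm1: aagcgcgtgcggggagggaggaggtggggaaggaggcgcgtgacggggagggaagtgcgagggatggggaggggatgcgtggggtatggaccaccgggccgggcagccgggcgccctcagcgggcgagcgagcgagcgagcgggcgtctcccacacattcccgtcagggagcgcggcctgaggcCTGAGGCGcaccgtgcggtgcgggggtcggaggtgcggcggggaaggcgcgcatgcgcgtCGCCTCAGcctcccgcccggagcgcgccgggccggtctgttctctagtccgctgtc
Sycp1 held 1 match of each motif, Sycp3 held 2 E-boxes and no CNCCTCAG, and Hfm1 held 2 CNCCTCAG matches. Of the 11 synaptonemal complex promoters 4 held CNCCTCAG (Sycp1, Hormad2, Tex12 and 4930447C04Rik) and 5 an E-box, beside 7.97% and 7.24% of all 27025 promoters of that length. Of the 10 break formation promoters in the table, 0 held CNCCTCAG. A match is a string of letters and no evidence of binding.

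Cohesin genes of meiosis split by subunit. Smc1b, the meiotic SMC subunit, stood at 1393 CPM in Sycp1-high barcodes against 665 CPM in all other Ddx4 or Dazl barcodes, 2.09-fold (95% interval 2.04 to 2.15) higher, and at 1097, 729.8 and 437 CPM in Stra8-positive, Zfy-high and Meig1-high barcodes. It was 366 CPM in low-X members and 1746 CPM in the other members. The kleisin Rad21l stood at 35.8 CPM against 34.1 CPM in Stra8-positive and 19.4 CPM in Zfy-high barcodes. Rec8, the other meiotic kleisin, stood at 3.75 CPM (16 UMIs) against 20.7 CPM in Stra8-positive barcodes, close to the 3.28 CPM of Leydig-marker barcodes. Meikin, a kinetochore protector of the first division, stood at 14.5 against 2.72 CPM. Of the 15 cohesin genes, 3 were at least 2-fold higher than in Stra8-positive barcodes and 2 lower, beside 11.1% and 28.2% of all genes. None moved 2-fold from Zfy-high barcodes, which is near the 4.82% of all genes higher and 3.46% lower. Without low-X members 4 were higher than in Zfy-high barcodes, beside 7.37% of all genes.

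Genes of double-strand break formation set the members apart from Zfy-high barcodes. Of 11 genes, 8 were at least 2-fold higher in Sycp1-high than in Zfy-high barcodes and none lower, with a list median of 1.46 on the log2 scale, beside 4.82% and 3.46% of all genes. Without the low-X members 7 were higher and 0 lower, beside 7.37% and 8.76% of all genes. Zcwpw1 stood at 589 CPM in Sycp1-high barcodes, against 323 CPM in Stra8-positive, 173 CPM in Zfy-high and 38.7 CPM in Meig1-high barcodes, and 771 CPM in the members outside the low-X set. It was 3.31-fold (95% interval 3.16 to 3.46) higher than in all other Ddx4 or Dazl barcodes. Prdm9 stood at 75.9 CPM, against 81.8 CPM in Stra8-positive and 19.4 CPM in Zfy-high barcodes, so it was level with the Stra8-positive set and 3.92-fold (95% interval 3.02 to 5.14) above the Zfy-high one. Ccdc36, whose protein IHO1 recruits the break machinery to axes, stood at 74.7 CPM against 56.4 CPM in Stra8-positive barcodes and 15.5 CPM in Zfy-high barcodes, a ratio of 4.81-fold (95% interval 3.62 to 6.49) to the Zfy-high barcodes.

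Within this list the highest set differed by gene. Spo11, the nuclease itself, stood at 158 CPM in Sycp1-high barcodes, against 20.2 CPM in Stra8-positive barcodes, 7.82-fold (95% interval 6.62 to 9.27) higher, and against 142 CPM in Zfy-high barcodes, which is close. Its partner gene Gm960 (Top6bl) stood at 98.4 CPM against 76.9 CPM in Stra8-positive and 43.4 CPM in Zfy-high barcodes. Mei4, Rec114 and Mei1, which SPO11 needs to cut, were the 3 genes lower than in Stra8-positive barcodes, at 26.7, 14.3 and 28.3 CPM against 69.3, 41.1 and 92.9 CPM. Among these 4 sets, transcripts of Mei4, Rec114 and Mei1 were highest in Stra8-positive barcodes and those of Spo11 in the members.

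Many strand exchange genes were higher than in Stra8-positive barcodes, but their highest set was not the same. Of 25 genes 11 were at least 2-fold higher than in Stra8-positive barcodes and 1 lower, beside 11.1% and 28.2% of all genes, and 4 were higher than in Zfy-high barcodes and none lower, beside 4.82% and 3.46%. Without low-X members 8 were higher and 1 lower than in Stra8-positive barcodes, beside 9.31% and 27.7% of all genes, and 7 higher and 1 lower than in Zfy-high barcodes, beside 7.37% and 8.76%. Dmc1, the meiotic recombinase, stood at 492 CPM in Sycp1-high barcodes, against 229 CPM in Stra8-positive and 273 CPM in Zfy-high barcodes, and was 3.19-fold (95% interval 3.03 to 3.35) higher than in all other Ddx4 or Dazl barcodes. Brca2, which loads recombinases, stood at 435 CPM against 234 and 188 CPM, and at 67.8 CPM in low-X members against 561 CPM in the other members. Meiob and Spata22 encode partners that bind single-stranded DNA; Meiob stood at 309 CPM against 28.7 CPM in Stra8-positive barcodes, 10.8-fold (95% interval 9.43 to 12.4) higher, and Spata22 at 62.1 against 12.1 CPM. Rad51ap2 stood at 389 against 34.6 CPM, 11.3-fold (95% interval 9.96 to 12.8) higher. Meiob and Rad51ap2 were higher still in Zfy-high barcodes, at 403 and 524 CPM, whereas Dmc1, Brca2 and Spata22 were lower there. Rpa1, the common single-strand binding subunit, was the gene lower than in Stra8-positive barcodes, at 27.9 against 70.5 CPM.

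**Figure D3:**
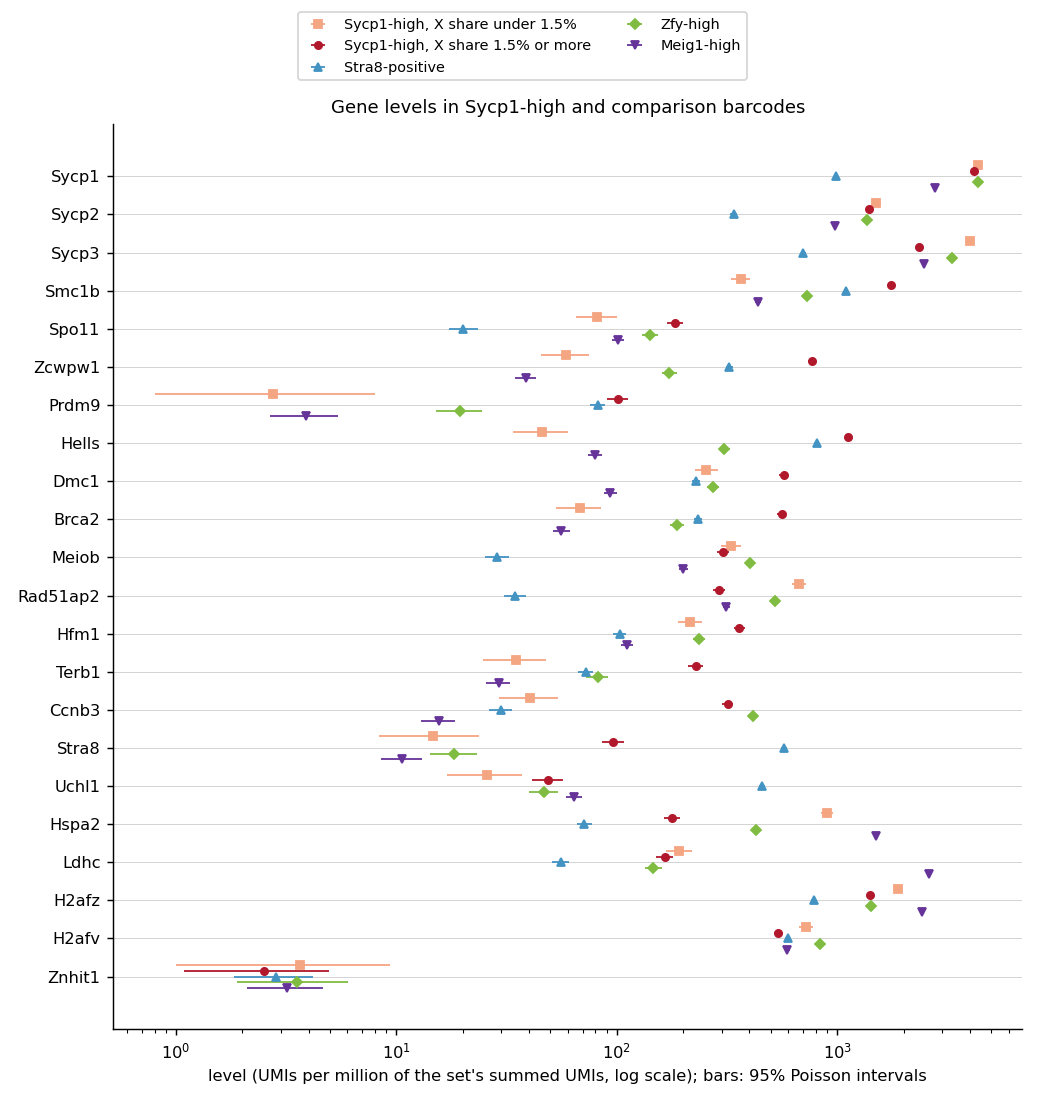
Levels of 22 genes (horizontal axis, CPM of a set's summed UMIs, log scale, with 95% Poisson intervals) in low-X and other Sycp1-high barcodes and in Stra8-positive, Zfy-high and Meig1-high barcodes. The 2 kinds of Sycp1-high barcode lie together for Sycp2 and Meiob and far apart for Prdm9, Zcwpw1, Hells, Brca2 and Hspa2.

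Several crossover genes were higher than in Stra8-positive barcodes, and most were lower in low-X than in other members. Of 17 genes, 6 were at least 2-fold higher than in Stra8-positive barcodes and none lower, beside 11.1% and 28.2% of all genes. Against Zfy-high barcodes 4 were higher and none lower, beside 4.82% and 3.46%. Without low-X members 6 were higher and none lower than in Stra8-positive barcodes, beside 9.31% and 27.7%. Against Zfy-high barcodes 6 were then higher and 2 lower, beside 7.37% and 8.76%. Hfm1, a helicase of crossover formation, stood at 323 CPM in Sycp1-high barcodes against 103, 236 and 112 CPM in Stra8-positive, Zfy-high and Meig1-high barcodes, and was 3.41-fold (95% interval 3.20 to 3.63) higher than in all other Ddx4 or Dazl barcodes. Msh5, of the MutS clamp, stood at 104 CPM against 46.1 and 49.6 CPM in Stra8-positive and Zfy-high barcodes, while its partner Msh4 stood at 69.1 against 26.6 and 73.6 CPM. Cntd1, which acts at late crossover sites, and 1700102P08Rik, whose tie to crossover formation was not checked, ran the other way. 1700102P08Rik and Cntd1 stood at 443 and 246 CPM in low-X members, against 70.5 and 50.7 CPM in the other members. In Meig1-high barcodes they stood at 711 and 276 CPM. Of the 17, 10 were at least 2-fold lower and 2 higher in low-X than in other members, beside 25.1% and 14.0% of all genes.

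Genes that tether telomeres to the nuclear envelope included some at higher levels in the members. Terb1, of the telomere-binding meiotic complex, stood at 178 CPM in Sycp1-high barcodes against 72.5 CPM in Stra8-positive and 81.8 CPM in Zfy-high barcodes, 3.83-fold (95% interval 3.52 to 4.17) higher than in all other Ddx4 or Dazl barcodes. Its partner Terb2 stood at 58.1 CPM against 29.5 CPM in Zfy-high barcodes, and Spdya, the telomeric CDK2 activator, at 290.5 CPM against 93.5 CPM in Stra8-positive barcodes. Lmnb1, a lamin, was lower than in Stra8-positive barcodes at 45.4 against 95.4 CPM. Of 10 genes 2 were at least 2-fold higher and 1 lower than in Stra8-positive barcodes, beside 11.1% and 28.2% of all genes. Against Zfy-high barcodes 2 were higher and none lower, beside 4.82% and 3.46%. Without low-X members the counts were 4 higher and 1 lower than in Stra8-positive barcodes and 3 higher than in Zfy-high barcodes, beside 9.31, 27.7 and 7.37% of all genes.

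The damage kinases ATR and ATM gave opposite ratios. Atr, the kinase of unsynapsed axes, stood at 825 CPM in Sycp1-high barcodes against 286 CPM in Stra8-positive barcodes, 2.89-fold (95% interval 2.74 to 3.04) higher, and close to the 806 CPM of Zfy-high barcodes. Atm, the kinase that answers breaks in leptonema, was 2.22-fold (95% interval 1.97 to 2.51) lower in members than the 166 CPM of Stra8-positive barcodes, with 5.50 CPM in low-X members and 98.8 CPM in the other members. Chek1 stood at 18.3 against 57.4 CPM, and Mdc1, which spreads the damage mark over the sex chromosomes, at 267 against 98.8 CPM. Of 18 genes 3 were at least 2-fold higher and 4 lower than in Stra8-positive barcodes, where 11.1% of all genes were higher and 28.2% lower, so the counts were near those shares. Without low-X members 3 were higher and 3 lower, beside 9.31% and 27.7% of all genes.

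Transcripts of spermatogonia were low, and Stra8 lay between the sets. Stra8, the entry factor whose UMIs define the Stra8-positive set, stood at 75.2 CPM in Sycp1-high barcodes, against 18.3 CPM in Zfy-high barcodes, 4.12-fold (95% interval 3.15 to 5.44) higher, and 13.6 CPM in Leydig-marker barcodes. The ratio to Zfy-high barcodes was 1.90-fold (1.59 to 2.26) with Zfy1 plus Zfy2 limited to 300 CPM, 9.21-fold (7.20 to 12.0) with Sycp1 of at least 2000 CPM and 2.66-fold (1.95 to 3.66) with at least 4000 CPM. It was 14.7 CPM in low-X members, the level of the Leydig-marker barcodes, and 96.0 CPM in the other members. Of 17 spermatogonial genes 13 were at least 2-fold lower than in Stra8-positive barcodes and 1 higher, with a list median of -3.42 on the log2 scale, beside 28.2% and 11.1% of all genes. Dmrt1, which holds spermatogonia back from meiosis, stood at 20.8 CPM against 251 CPM, 12.0-fold (95% interval 9.74 to 15.1) lower, and Sall4 at 1.41 against 52.7 CPM, 37.5-fold (95% interval 17.1 to 103) lower. The fold for Sall4 was 4.26 times smaller with at most 5% mitochondrial UMIs. That for Dmrt1 was 2.35 times smaller with Sycp1 of at least 2000 CPM. Kit and Uchl1 stood at 13.4 and 42.9 CPM against 137 and 457 CPM. The gene that was higher was Id4, at 56.0 against 17.6 CPM, which is known as a stem cell factor but whose level was highest of these sets in Meig1-high barcodes at 295 CPM. Against Zfy-high barcodes none of the 13 measured spermatogonial genes differed 2-fold, beside 4.82% of all genes higher and 3.46% lower. Without low-X members 2 of the 13 were higher and 1 lower than in Zfy-high barcodes, beside 7.37% and 8.76%. Then 14 of 17 were lower than in Stra8-positive barcodes, beside 27.7%.

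Cell cycle genes differed in both directions, with G1 and some replication genes low and Ccnb3 high. Ccnb3, the X-linked cyclin B3 of early prophase, stood at 247 CPM in Sycp1-high barcodes, against 29.8 CPM in Stra8-positive, 414 CPM in Zfy-high and 15.5 CPM in Meig1-high barcodes, with 40.3 CPM in low-X members and 318 CPM in the other members. It was thus higher in the Zfy-high set than in the members. The G1 cyclin gene Ccnd2 stood at 6.09 CPM against 82.4 CPM in Stra8-positive barcodes, 13.5-fold (95% interval 9.16 to 20.8) lower, and the replication gene Mcm2 at 10.1 against 111 CPM. Other replication genes were closer to the Stra8-positive level: Mcm6 stood at 90.7 CPM against 123 CPM in Stra8-positive barcodes, but was 4.16-fold (95% interval 3.26 to 5.35) above the 21.8 CPM of Zfy-high barcodes. Bub1, a spindle checkpoint kinase, stood at 524 CPM, 3.49-fold (95% interval 3.32 to 3.66) higher than the 150.3 CPM of all other Ddx4 or Dazl barcodes. Of 25 genes measured, 6 were at least 2-fold higher and 10 lower than in Stra8-positive barcodes, beside 11.1% and 28.2% of all genes. Without low-X members 3 were higher and 9 lower, beside 9.31% and 27.7%.

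The pachytene programme was present at low levels. Of 21 genes measured, 15 were at least 2-fold higher in Sycp1-high than in Stra8-positive barcodes and 2 lower, beside 11.1% and 28.2% of all genes. But 20 of 24 were at least 2-fold lower than in Meig1-high barcodes, beside 18.6% of all genes. Against Zfy-high barcodes 3 of 20 were higher and 0 lower, beside 4.82% and 3.46%. Without the low-X members 9 of 20 were higher than in Stra8-positive barcodes and 1 lower, beside 9.31% and 27.7%. Against Zfy-high barcodes 1 of 19 was then higher and 4 lower, beside 7.37% and 8.76%. Meig1 in this list is a gene of the rule. Mybl1, the transcription factor that starts the programme, stood at 163 CPM against 33.5 CPM in Stra8-positive barcodes, with similar levels of 176 CPM in low-X members and 159 CPM in the other members, and 147 CPM in Meig1-high barcodes. Zfp541 likewise stood at 298 against 92.8 CPM, with 166 CPM in Meig1-high barcodes. Later genes were far below the Meig1-high level: Piwil1, a piRNA-binding protein, stood at 34.4 CPM in Sycp1-high and 471 CPM in Meig1-high barcodes, and Spag17, of the sperm axoneme, at 26.9 and 309.5 CPM. Ldhc, the germ cell lactate dehydrogenase, stood at 172 CPM, but 38.1% of its 734 UMIs came from 5 members, 1 of which held 127, and its level is not read further. The X-linked gene Tsga8 was similar, with 193 of its 206 UMIs in the members outside the low-X set held by 5 barcodes.

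**Figure D4:**
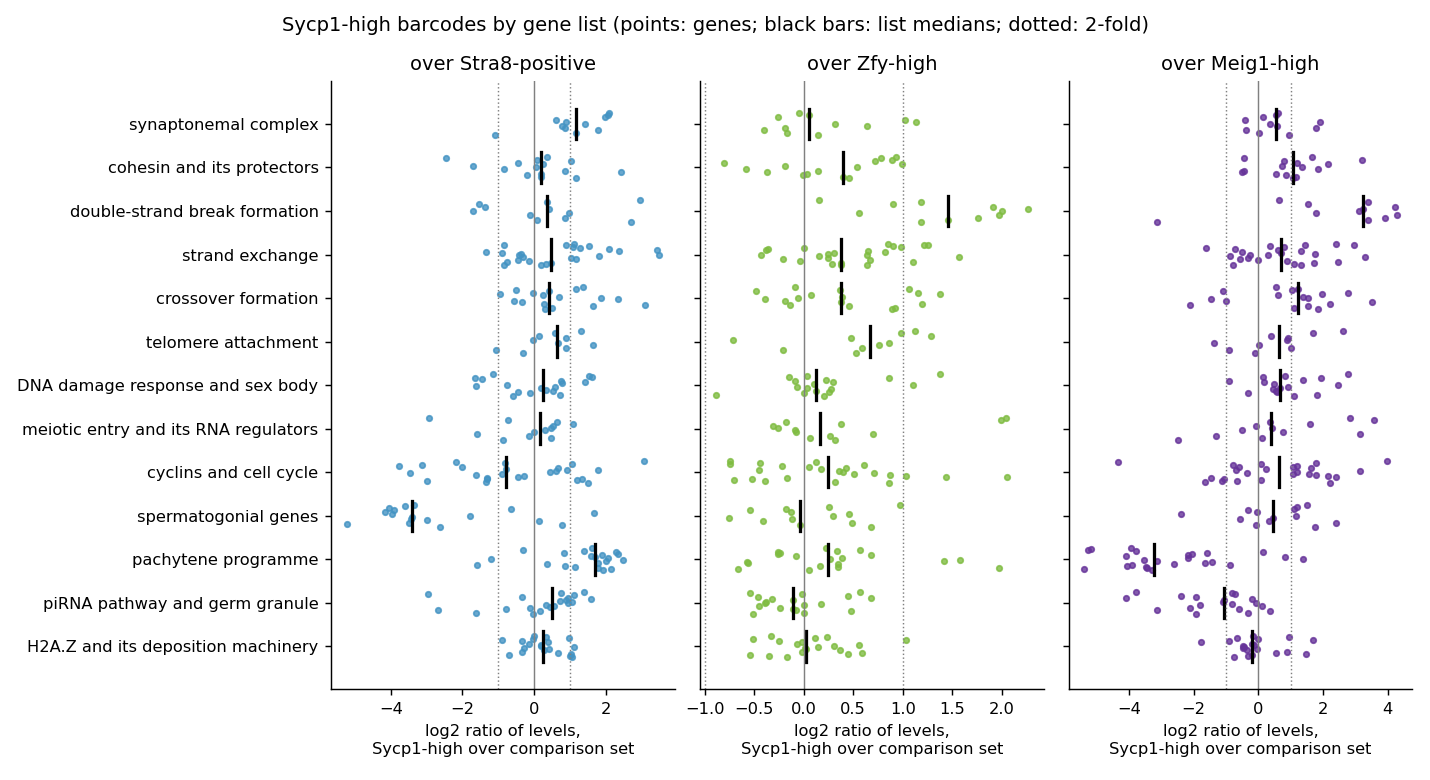
Log2 ratio of gene levels in Sycp1-high barcodes over Stra8-positive, Zfy-high and Meig1-high barcodes (horizontal axes, 1 panel each on its own scale) for 13 gene lists (vertical axis), with 1 point per gene with at least 20 UMIs and black bars at list medians. Spermatogonial genes lie far to the left over Stra8-positive barcodes, break formation genes to the right over Zfy-high barcodes with a median of 1.46, and pachytene genes to the left over Meig1-high barcodes with a median of -3.21.

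Few of the 20 genes of H2A.Z and its deposition machinery were 2-fold apart between germ cell sets. The H2A.Z genes H2afz and H2afv stood at 1536 and 587 CPM in Sycp1-high barcodes, against 783 and 597 CPM in Stra8-positive, 1419.5 and 836 CPM in Zfy-high and 2416 and 594 CPM in Meig1-high barcodes. H2afz was 1.96-fold (95% interval 1.90 to 2.03) higher than in Stra8-positive barcodes, and H2afv was level with it. Srcap, the ATPase of the complex that ZNHIT1 belongs to, stood at 113 against 90.8, 96.3 and 58.2 CPM in the same 3 sets. Anp32e, the chaperone that removes H2A.Z, stood at 59.3 CPM against 109.9 CPM in Stra8-positive and 28.9 CPM in Zfy-high barcodes, the 1 gene of 20 at least 2-fold from Zfy-high barcodes. Its ratio of 2.05-fold (95% interval 1.63 to 2.60) was below 2 with some other limits, at 1.30-fold (0.824 to 2.06) with at most 5% mitochondrial UMIs, 1.76-fold with Zfy1 plus Zfy2 limited to 300 CPM and 1.97-fold with Sycp1 of at least 4000 CPM. Of all genes, 4.82% were at least 2-fold higher and 3.46% lower than in Zfy-high barcodes. Against Stra8-positive barcodes 3 of 20 were at least 2-fold higher and none lower, beside 11.1% and 28.2% of all genes. Without low-X members 1 was higher and 1 lower, beside 9.31% and 27.7%.

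Genes of meiotic entry, the piRNA pathway, the p53 family and stress were compared in the same way, beside 11.1% of all genes higher and 28.2% lower than in Stra8-positive barcodes. Of 12 genes of meiotic entry and its RNA regulators, 1 was at least 2-fold higher in Sycp1-high than in Stra8-positive barcodes and 2 lower: Ythdc2, the helicase that ends the mitotic programme, was at 312 against 148 CPM, Elavl2 at 86.4 against 263 CPM, and Stra8 defines the other set. Without low-X members 1 was higher and 3 lower. Of 20 piRNA pathway genes 4 were higher and 3 lower than in Stra8-positive barcodes; Mael, a piRNA cofactor, was at 348 against 161 CPM, and 10 of 19 were at least 2-fold lower than in Meig1-high barcodes, beside 18.6% of all genes. Without low-X members the balance turned, with 0 higher and 5 lower of 19 against Stra8-positive barcodes, beside 9.31% and 27.7% of all genes, and 0 higher and 5 lower of 18 against Zfy-high barcodes, beside 7.37% and 8.76%, where all members gave 0 of 19 lower. Of 16 p53 family and cell death genes 3 were higher and 5 lower than in Stra8-positive barcodes (1 and 5 of 15 without low-X members), with Trp53 at 22.5 against 62.7 CPM and its target Pmaip1 at 23.0 against 6.35 CPM. Pmaip1 too was higher in low-X members, at 53.1 against 12.6 CPM in the other members. Of 14 immediate early and heat shock genes 12 were at least 2-fold lower than in all other Ddx4 or Dazl barcodes, beside 28.4% of all genes. That set holds somatic RNA. None of the 13 measured differed 2-fold from Zfy-high barcodes, which is near the 4.82% of all genes higher and 3.46% lower. Fos was at 45.0 CPM in Sycp1-high barcodes, 64.8 CPM in Stra8-positive, 60.3 CPM in Zfy-high and 1025 CPM in Leydig-marker barcodes.

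Among all genes with at least 50 CPM in either set, those with the largest ratio to all other Ddx4 or Dazl barcodes included named meiotic genes and others outside the lists. The 20 largest held Ccnb3, Spata22, Terb1, Hfm1 and Bub1, already described, and Fbxo47, whose protein acts in synapsis and at telomeres, at 156 CPM in Sycp1-high barcodes against 40.0 CPM in all others. They also held Mfsd13b, the largest, at 77.1 against 18.3 CPM with a ratio of 4.20-fold (95% interval 3.67 to 4.79), the primase-polymerase gene Primpol at 104 against 25.1 CPM, the homeobox gene Pbx3 at 707 against 207 CPM, and Inca1, an inhibitor of a cyclin A1 kinase, at 282 against 80.6 CPM. All of the 20 except Tafa1 and Fam228b were lower in low-X members than in the other members. Primpol stood at 14.7 and 135 CPM and Pbx3 at 138 and 903 CPM. The median log2 ratio over all 10523 genes was -0.27 there, with 25.1% at least 2-fold lower and 14.0% higher. X-linked genes such as Ccnb3 are set low there by the split, with 278 of 395 at least 2-fold lower.

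The largest ratios to Stra8-positive barcodes rested mainly on low-X members. All 10 of them were higher in low-X than in the other members, where 14.0% of all 10523 genes were at least 2-fold higher and 25.1% lower. Among them were the dynein heavy chain gene Dnah7a at 308 and 27.1 CPM, the sperm fibrous sheath partner gene Fsip2 at 207 and 20.5 CPM, and Kctd19. The smallest ratios to Stra8-positive barcodes were genes of spermatogonia, with Sall4, Pou3f1 (3.05 against 61.3 CPM) and Trim71 (2.81 against 78.4 CPM) among them. The largest ratios to Zfy-high barcodes were led by Rbpms2, an RNA-binding protein, at 128 against 20.5 CPM, 6.26-fold (95% interval 4.91 to 8.08) higher, with Stra8, Ccdc36, Mcm6, the ribonucleotide reductase gene Rrm2 (50.4 against 10.4 CPM) and the cohesin acetyltransferase gene Esco2 (168 against 42.0 CPM).

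Sex-linked genes stood out among those lower than in Zfy-high barcodes. Of 511 X-linked genes measured, 90 (17.6%) were at least 2-fold lower in Sycp1-high barcodes, against 2.80% of 11695 autosomal genes. Without the low-X members 59 of 496 X-linked genes (11.9%) were lower, against 8.60% of 11333 autosomal genes. Leaving out members by their X-linked share raises their X-linked level by itself. The Zfy-high set kept its 31 barcodes under 1.5%, so nothing can be concluded from the smaller gap. The 10 smallest ratios to Zfy-high barcodes held Zfy1 and Zfy2, which define that set, and 6 X-linked genes, among them Cfap47 at 26.7 against 105 CPM, Nxt2 at 44.5 against 135 CPM and the RNA helicase gene Ddx3x at 17.1 against 54.8 CPM. Cfap47 and Nxt2 stood at 23.0 and 50.7 CPM in the members outside the low-X set, so they were low there too. Over all X-linked genes the share of UMIs in Sycp1-high barcodes was 2.06%. It was 0.807 times (0.800 to 0.815) that of Zfy-high barcodes and 2.63 times (2.60 to 2.66) that of Meig1-high barcodes. For the 646 members alone, which were picked by this share, the ratios were 0.969 and 3.16. The Meig1-high set kept its 484 barcodes under 1.5%.

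The 646 members outside the low-X set still varied among themselves. They were put in 3 groups of 216, 215 and 215 by the summed level of Meiob and Rad51ap2, 2 genes low in Stra8-positive and high in Zfy-high barcodes, a grouping chosen after their levels were seen. Stra8 stood at 144, 86.6 and 64.4 CPM over the groups from low to high, and Dmrt1 at 48.4, 21.6 and 12.5 CPM. Tex15, a gene of break repair and piRNA-guided silencing, stood at 1090.0, 900.2 and 762 CPM, and Esco2 at 274, 209 and 174 CPM. Tafa1 ran the other way, at 5.26, 36.1 and 106 CPM, as did Kctd19 at 28.4, 41.5 and 80.5 CPM and the kinase gene Cdk1 at 88.3, 149.7 and 162 CPM. Zfy1 and Zfy2, limited but not fixed by the rule, stood at 43.1 and 46.2 CPM in the lowest group and 93.9 and 96.6 CPM in the highest. Spo11 differed little, at 192, 174 and 186 CPM, and so did Dmc1, at 552, 624 and 541 CPM. The spermatogonial gene Uchl1 also differed little, at 48.4, 55.0 and 42.9 CPM. So did the pachytene genes Mybl1 at 155, 155 and 166 CPM and Zfp541 at 308, 283 and 322 CPM. Not all genes of these lists thus ran with the groups. The median depth of the groups was 4044, 4459 and 4347 UMIs and their X-linked share 2.49, 2.51 and 2.44%. With the 646 members grouped by depth instead, the highest group over the lowest was 2.88-fold for Cdk1 and 2.81-fold for Zfy1. It was 1.78-fold for Zfy2 and 1.68-fold for Kctd19. The Meiob plus Rad51ap2 groups gave 1.83, 2.18, 2.09 and 2.84-fold for these 4 genes. Tafa1 moved with depth as well, at 6.54-fold (95% interval 3.46 to 13.9), against 20.3-fold over the Meiob plus Rad51ap2 groups. Rsph1 was at 1.85-fold by depth and 1.75-fold over those groups. By depth Stra8 was level at 0.997-fold, and Dmrt1 was at 1.62-fold (95% interval 0.84 to 3.37). The part of depth in the differences was not tested.

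**Figure D5:**
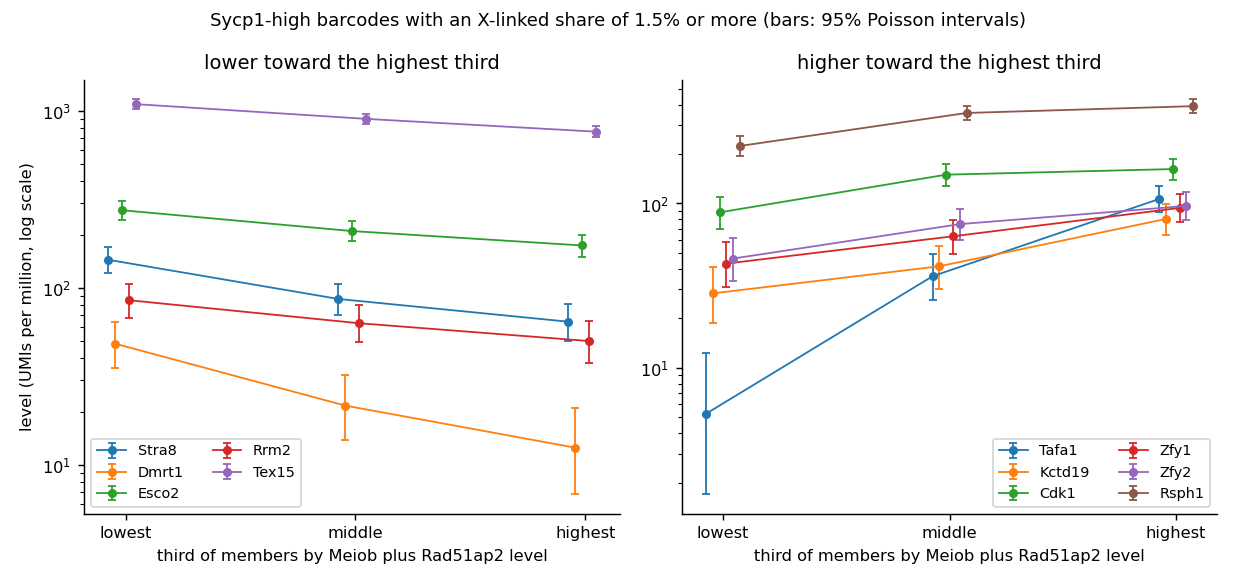
Levels of 11 genes (vertical axes, CPM, log scale, with 95% Poisson intervals) in the 646 Sycp1-high barcodes with an X-linked share of at least 1.5%, in 3 groups of increasing Meiob plus Rad51ap2 level (horizontal axes). Stra8 and Dmrt1 are highest in the lowest group, and Kctd19, Cdk1, Zfy1, Zfy2 and Tafa1, whose UMIs lay in 42 barcodes, in the highest.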

How the data were processed

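Mouse testis cells were run in 4 droplet 3' libraries, 1 for each genotype and day, and the counts of 1 library were used. The values the authors deposited are UMI counts per gene and barcode, whole and not normalised. Cell Ranger 7.1.0, STAR and the build mm10 stand in the submitters' processing notes, with no cell-calling step named. Gene positions came from GENCODE vM21 by identifier (32235 of 32285 genes matched) and promoters from RefSeq.

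UMIs were summed over a set and divided by its total, which was 4269094 in Sycp1-high barcodes. Shares have Clopper-Pearson intervals, levels exact Poisson intervals and ratios exact conditional intervals, all at 95%. In ratios a count under 3 over a set was raised to 3. Genes needed 20 UMIs over both sets, and a gene was counted as higher or lower past 2-fold. Free RNA was not subtracted, called doublets stayed in, no clusters were made, and the ratio step was tested on simulated data. Python 3.11.15, numpy 2.4.6, scipy 1.17.1, pandas 2.3.3, scanpy 1.11.5 (Scrublet) and matplotlib 3.10.9 were used.

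The members, sets and 22 gene lists were chosen with earlier results of these data known. The X-linked split and the grouping by Meiob and Rad51ap2 were chosen after levels had been seen. Genes to name were those of the rule, in each list the 2 largest ratios, the smallest ratio and the highest level against all other Ddx4 or Dazl barcodes, the 20 largest ratios to that set, the 10 largest and smallest to each smaller set, and Znhit1, H2afz and H2afv. Some of these are left out, and other genes named were picked after their values were seen. Bend2 was not found under that symbol.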

Additional observations from a re-analysis of the deposited data

Results flagged for a closer look

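Outside the depth filters, 58 barcodes with over 10% mitochondrial UMIs met every other limit of the rule, so signal of the same kind was present in barcodes that the comparisons left out. Their median depth was 3211.5 UMIs and their median mitochondrial share 11.1%. Sycp1 was at 3885 CPM over these barcodes, Sycp2 at 1214 CPM, Zcwpw1 at 549 CPM, Meiob at 319 CPM and Stra8 at 49.5 CPM, and X-linked genes took 2.11% of their UMIs. For the 773 members the X-linked share was 2.06%.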

How the results depend on the processing

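The number of members was 1326 with Sycp1 of at least 2000 CPM, 403 with at least 4000 CPM and 163 with at most 5% mitochondrial UMIs. As a share of Ddx4 or Dazl barcodes these were 21.02%, 6.39% and 9.76%, and the share was 10.1% with Zfy1 plus Zfy2 below 300 CPM, 10.4% with Meig1 below 600 CPM, 13.6% with at least 2000 UMIs, 10.7% with up to 20% mitochondrial UMIs, 15.8% with at least 3 Ddx4 or Dazl UMIs and 10.5% with the X-linked share of members at 1.5% or more. The X-linked share was 2.19% and 2.02% with Sycp1 of at least 2000 and 4000 CPM, 2.35% with Meig1 below 600 CPM, 1.55% at 5% mitochondrial UMIs, 2.22% with barcodes weighted equally and 2.48% without low-X members. Its ratio to Meig1-high barcodes was 2.79, 2.58, 2.36, 2.19, 2.0 and 3.16 in that order, and 2.75 with at least 2000 UMIs, 2.49 at 20% mitochondrial UMIs, 2.72 with 3 Ddx4 or Dazl UMIs and 2.71 without called doublets. Its ratio to Zfy-high barcodes was 0.855, 0.791, 0.883, 0.622, 0.855 and 0.969 in the first order, and 0.825 with Zfy1 plus Zfy2 below 300 CPM. Genes at least 2-fold higher than in Zfy-high barcodes numbered 1054 and 329 with Sycp1 of at least 2000 and 4000 CPM, 372 at a gene minimum of 50 UMIs and 921 at 1 UMI, against 589. Genes lower than in Zfy-high barcodes numbered 981 with Zfy1 plus Zfy2 below 300 CPM, 667 with Meig1 below 600 CPM, 184 at a minimum of 50 UMIs, 953 at 1 UMI and 1038 without low-X members, against 423. At 5% mitochondrial UMIs, 1684 genes were lower than in Meig1-high barcodes, 2566 lower than in Stra8-positive barcodes, and 517 higher and 2558 lower than in all other Ddx4 or Dazl barcodes. At a minimum of 1 UMI, 6660 genes were higher than in Stra8-positive barcodes and 7337 higher than in all others, and with Sycp1 of at least 4000 CPM 1682 were higher than in all others. Of 575 values of 47 gene ratios under these settings, 574 kept their direction and 48 moved by over 1.5 times; Znhit1 over all other Ddx4 or Dazl barcodes reversed, with a ratio of 1.28 at 5% mitochondrial UMIs, and the cause was not tested. Scaling by the median ratio over genes moved log2 ratios by 0.28 against Meig1-high barcodes and by under 0.1 against the other sets. The limit on X-linked share was added after seeing the data. No paired analysis was possible because the counts of 1 library were analysed. At a median of 4524 UMIs a barcode, levels of a few CPM cannot be read per barcode.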
